A study of Mus musculus with 5 samples.

Results

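The 4 Id genes and 6 genes of the BMP-SMAD pathway were followed by RNA-seq in 5 libraries of 4-cell nuclear transfer embryos of the mouse. The genes were taken by symbol, Id1, Id2, Id3, Id4, Smad1, Smad4, Smad5, Smad6, Smad7 and Bmpr1a, and all 10 were found among the 22026 symbols of the files. Nuclear transfer places the nucleus of a donor cell in an oocyte whose own nucleus has been removed, and the series title asks what the maternal histone variant H3.3 does in reprogramming that nucleus. The strain label is B6D2F1 throughout, and the sources used here do not give the kind of donor cell. There was 1 library for each of 5 groups: H3.3 knockdown embryos, knockdown embryos given H3.3 mRNA, knockdown embryos given H3.2 mRNA, embryos treated with luciferase, and embryos with no treatment. The last 2 are the controls. The H3.2 mRNA library carries conflicting labels, with H3.2 mRNA in the title and H3.3 mRNA in the treatment tag. It was grouped by its title and is called the library labelled H3.2 mRNA. The sources do not say how the knockdown was made, at what dose, or how many embryos went into a library.

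Bone morphogenetic proteins (BMPs) are secreted ligands that bring type I and type II receptor kinases together at the cell surface. The type I receptor then phosphorylates the receptor-regulated SMAD1, SMAD5 and SMAD9, which join SMAD4 and act on target genes in the nucleus. The Id genes are among the best known direct targets. Id proteins have a helix-loop-helix but no DNA-binding region, and they hold the E proteins and other bHLH transcription factors away from DNA. SMAD6 and SMAD7 are inhibitors that the pathway itself induces. In the mouse embryo Id2 is known as an early marker of the outer cells that form trophectoderm.

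Values are FPKM, the number of fragments scaled by transcript length and by the mapped reads of the library, so levels of different genes can be compared per length. Since each group has a single library, differences are given without error or p-value. Differences are given on the log2(FPKM + 1) scale, which understates the change of low genes. A gene was called higher or lower past a difference of 2 on that scale, which is 4-fold. Background shares are over 13144 genes that averaged 1 FPKM or more across the libraries. Of the 10 genes 9 passed this filter, and Smad6 did not. In bulk embryos, fewer cells that express a gene and less RNA per cell cannot be told apart.

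The libraries as a whole were checked first. H3f3a and H3f3b, which both encode H3.3, summed to 664 FPKM in the knockdown, 467 FPKM in the library labelled H3.3 mRNA and 420 FPKM in the library labelled H3.2 mRNA, against 5734 FPKM with luciferase and 5266 FPKM untreated. The target was low in all 3 knockdown-derived libraries. The library labelled H3.3 mRNA was also below the knockdown, so the added mRNA was not visible in these values, and its label rests on the submitters' word. All 14 oocyte and cleavage embryo markers passed the filter, and they summed to 25242, 15703 and 8681 FPKM in the knockdown, H3.3 mRNA and H3.2 mRNA libraries, against 16932 FPKM with luciferase and 20923 FPKM untreated. Dppa3 and Obox6 made up most of these sums. Some oocyte genes within the list were lower with luciferase than untreated, such as Gdf9 at 81.3 FPKM against 1332 FPKM and Oosp1 at a listed 0 against 350 FPKM. Zp2, Zfp42, Obox6, Tdgf1 and Sall4 went the other way, with Zp2 at 34.6 FPKM against 8.82 FPKM. Of 10 fibroblast markers 8 were listed at 0 everywhere, and the other two, Col1a2 and Pdgfra, were above 0 only with luciferase, at 2.48 and 4.23 FPKM. Of 12 cumulus and granulosa markers 6 were listed at 0 everywhere, and the list summed to 19.7, 37.4 and 32.6 FPKM in the knockdown, H3.3 mRNA and H3.2 mRNA libraries, against 7.22 FPKM with luciferase and 189 FPKM untreated. Nearly all of the untreated sum was Tnfaip6, at 185 FPKM. Of 5 blood markers 3 were listed at 0 everywhere, and the others summed to 49.0, 15.8 and 0 FPKM in the knockdown-derived libraries, against 14.2 FPKM with luciferase and 9.46 FPKM untreated. The untreated library lay farthest from the rest (Pearson's r of 0.740 to 0.753 across genes), and a gene listed at 0 was common in each library, from 10.3% of genes with luciferase to 22.5% untreated. Genes are not independent replicates.

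The region upstream of the start site is shown for Id3, whose level differed most among the 10 genes, and for Id2, which did not share its pattern. The sequences are RefSeq's on GRCm38.p6, a later build than the mm9 of the expression values, and 7 of the 10 genes had an entry that was used. Each runs over the 250 bases before the start. Capitals mark matches on either strand to GGCGCC, a GC-rich element of SMAD1 and SMAD5 complexes, to CAGAC and its reverse complement GTCTG, a SMAD binding element, and to TATAA, the core of a TATA box. No 2 of the matches shown overlap. The motifs were chosen after the sequences and the values had been seen.

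Id3, chr4:136143572-136143821, plus strand: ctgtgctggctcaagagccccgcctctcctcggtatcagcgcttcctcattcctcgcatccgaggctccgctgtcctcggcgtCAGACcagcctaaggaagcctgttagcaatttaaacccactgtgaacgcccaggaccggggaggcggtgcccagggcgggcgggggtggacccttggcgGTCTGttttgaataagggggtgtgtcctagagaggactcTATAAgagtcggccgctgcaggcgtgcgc

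Id2, chr12:25096093-25096342, minus strand: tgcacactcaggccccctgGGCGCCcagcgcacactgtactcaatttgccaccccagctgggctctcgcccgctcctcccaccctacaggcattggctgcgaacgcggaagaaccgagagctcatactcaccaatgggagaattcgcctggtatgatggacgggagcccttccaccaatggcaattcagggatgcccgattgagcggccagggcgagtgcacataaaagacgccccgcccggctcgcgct

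The Id3 window held CAGAC at 167 and 68 bases before the start and TATAA at 29 bases. The Id2 window held GGCGCC at 231 bases before the start and neither of the other motifs. Among the 27025 genes of the promoter table, 42.1% held CAGAC in the same window, 23.5% held TATAA and 9.54% held GGCGCC. Of the 7 genes whose entry was used, Id3 held CAGAC, Id2, Id4 and Bmpr1a held GGCGCC, and Id3 and Smad5 held TATAA. These matches describe the letters of the windows and do not show binding.

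Id3 was the most abundant Id gene in every library, and its level in the knockdown was far below either control. It stood at 87.8 FPKM in the knockdown, 227 FPKM in the library labelled H3.3 mRNA and 29.6 FPKM in the library labelled H3.2 mRNA, against 1576 FPKM with luciferase and 978 FPKM untreated. The 3 knockdown-derived libraries thus all lay below both controls, with no overlap, an order that 8.83% of genes shared. The knockdown differed by -3.46 from the untreated and by -4.15 from the luciferase library on the log2 scale, which is 11.1-fold and 17.9-fold lower. The controls themselves differed by 0.69, luciferase being 1.61-fold higher. In rank by FPKM, Id3 was gene 4676 in the knockdown, 2721 in the library labelled H3.3 mRNA and 7539 in the library labelled H3.2 mRNA, against 383 with luciferase and 829 untreated. Its range over the 5 libraries, 5.69 on the log2 scale, was larger than that of 91.2% of genes.

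Id3 was at the control level in neither mRNA library. In the library labelled H3.3 mRNA it was 2.59-fold higher than in the knockdown, a difference of 1.36 that did not reach 4-fold. It remained 4.30-fold below untreated and 6.93-fold below luciferase. Id3 was 2.96-fold lower in the library labelled H3.2 mRNA than in the knockdown (-1.54). That difference was -0.97 after rescaling to a common sum and -0.67 with the trend in length removed, so its size depended on the scaling. The library labelled H3.3 mRNA was 7.67-fold above the library labelled H3.2 mRNA, a difference of 2.90. The source names split the libraries into NT (knockdown, H3.3 mRNA, untreated) and SCNT (H3.2 mRNA, luciferase), which may mark a batch. Within NT, Id3 differed from the untreated library by -3.46 in the knockdown and by -2.10 in the library labelled H3.3 mRNA. Within SCNT, the library labelled H3.2 mRNA differed from luciferase by -5.69. Its transcript, at 1278 bases, is short, and short transcripts tended to be higher in the knockdown, with a Spearman correlation across genes of length with the difference from luciferase of -0.24. With the trend in length removed, the Id3 differences of the knockdown were -3.85 and -4.66 from the untreated and luciferase libraries.

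**Figure D1:**
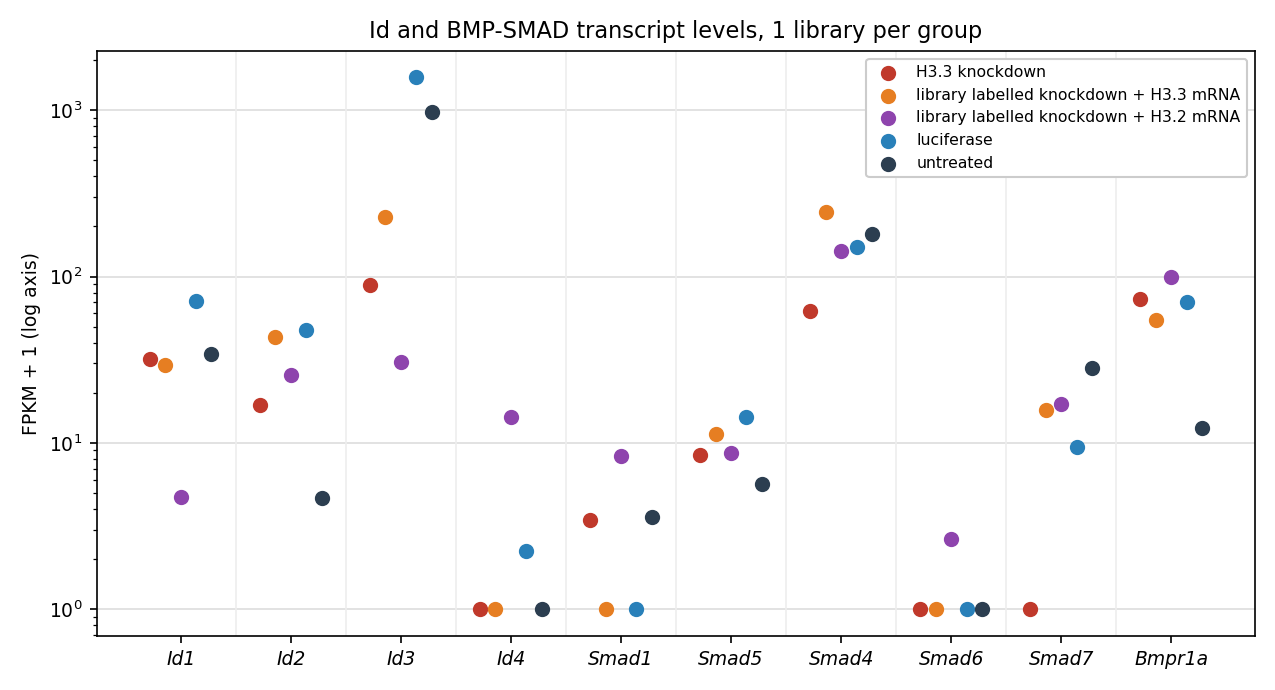
FPKM + 1 on a log axis for the 10 genes, 1 point per library, coloured by group; a point at 1 is a gene listed at 0. Id3 shows all 3 knockdown-derived libraries (29.6 to 227 FPKM) below both controls (978 and 1576 FPKM), and Smad7 shows the knockdown alone at 0.

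Id1 was at a lower level and split the knockdown-derived libraries. It stood at 30.9 FPKM in the knockdown, 28.4 FPKM in the library labelled H3.3 mRNA and 3.73 FPKM in the library labelled H3.2 mRNA, against 70.4 FPKM with luciferase and 33.4 FPKM untreated. All 3 were below both controls, but the knockdown and the library labelled H3.3 mRNA were within 0.23 of the untreated library on the log2 scale, and with upper-quartile scaling both stood above it. The library labelled H3.2 mRNA stood apart, 8.29-fold lower than the knockdown (-2.76), 18.9-fold lower than luciferase and 8.96-fold lower than untreated. The difference from the knockdown was -1.94 with a common sum and -1.70 with the length trend removed, both short of 4-fold. Id1 and Id3 were both lowest in that library and highest with luciferase.

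Id2 did not follow Id3 or Id1. It stood at 15.9 FPKM in the knockdown, 42.0 FPKM in the library labelled H3.3 mRNA and 24.6 FPKM in the library labelled H3.2 mRNA, against 46.5 FPKM with luciferase and 3.63 FPKM untreated. The knockdown lay between the controls, which were themselves 12.8-fold apart (3.36), more than 82.5% of genes. The untreated library was lowest, and the other 4 were within a 2.93-fold range. In FPKM the knockdown was 4.37-fold above untreated, but the difference was 1.87 on the log2(FPKM + 1) scale and passed 2 only with a pseudocount of 0.1 or upper-quartile scaling (2.10 with either). In the library labelled H3.3 mRNA Id2 was 2.65-fold higher than in the knockdown, and in the library labelled H3.2 mRNA 1.55-fold higher, both short of 4-fold.

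Id4 was listed at 0 in the knockdown, in the library labelled H3.3 mRNA and untreated. It stood at 13.3 FPKM in the library labelled H3.2 mRNA and at 1.23 FPKM with luciferase. That library was the one in which all 10 genes were above 0.

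Because Id3 dominated the family, the Id genes as a sum followed it. They summed to 135 FPKM in the knockdown, 298 FPKM in the library labelled H3.3 mRNA and 71.3 FPKM in the library labelled H3.2 mRNA, against 1694 FPKM with luciferase and 1015 FPKM untreated. Id3 made up 65.2%, 76.4% and 41.6% of these sums in the knockdown-derived libraries, against 93.0% with luciferase and 96.4% untreated. The E proteins, the main binding partners of Id proteins, are encoded by Tcf3 (E2A), Tcf4 and Tcf12, and Tcf7l1, for which Tcf3 is an older name, has its own row in the files. The E protein genes summed to 70.6, 204 and 173 FPKM in the knockdown, H3.3 mRNA and H3.2 mRNA libraries, against 114 FPKM with luciferase and 614 FPKM untreated. The ratio of Id to E protein transcripts was 1.91, 1.46 and 0.413 in the knockdown-derived libraries, against 14.9 with luciferase and 1.65 untreated. The ratio therefore did not separate the knockdown-derived libraries from the controls, since the untreated library also had the highest E protein sum.

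**Figure D2:**
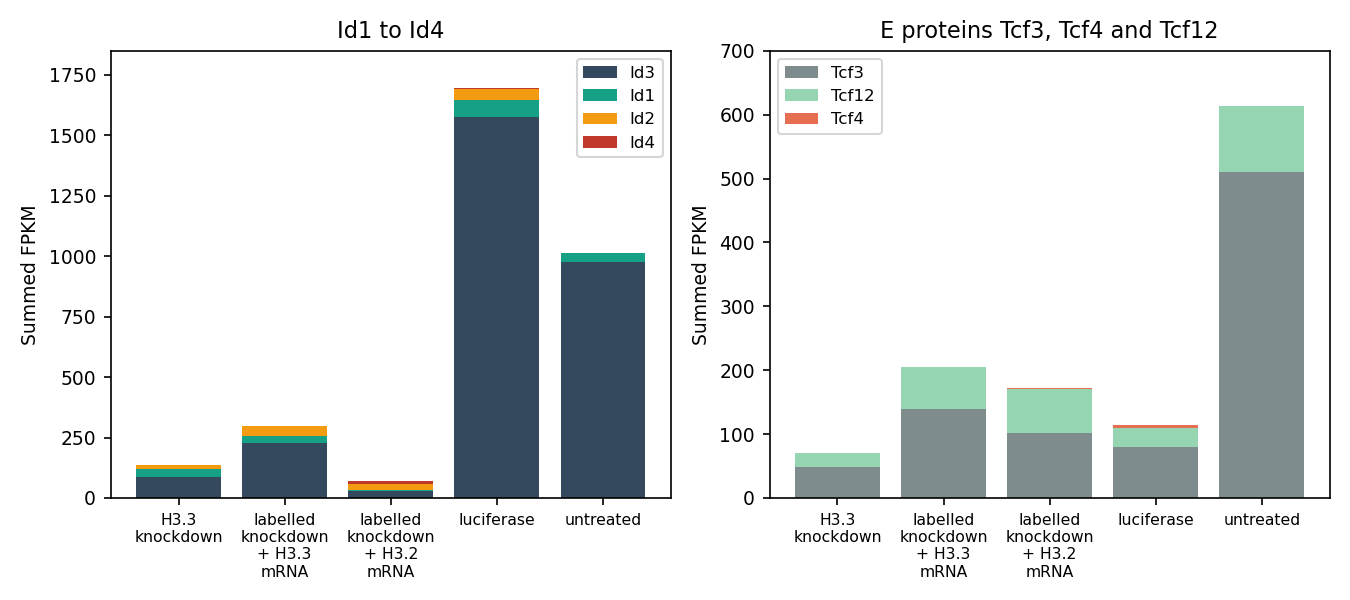
Stacked bars of summed FPKM in each library for Id1 to Id4 (left) and for the E protein genes Tcf3, Tcf4 and Tcf12 (right), on separate axes that start at 0. The Id sum is 71.3 to 298 FPKM in the knockdown-derived libraries and 1015 and 1694 FPKM in the controls, whereas the E protein sum is highest in the untreated library at 614 FPKM.

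Smad7, the inhibitory SMAD that was detected in most libraries, was the one among the 9 genes listed at 0 in the knockdown and above 0 in the other 4. It was listed at 0 in the knockdown, at 14.8 FPKM in the library labelled H3.3 mRNA and 16.1 FPKM in the library labelled H3.2 mRNA, against 8.46 FPKM with luciferase and 27.2 FPKM untreated. Both mRNA libraries lay between the controls. No fold is given against a listed 0. Of the 1272 genes with both controls from 5 to 50 FPKM, 16.9% were listed at 0 in the knockdown, 9.98% in the library labelled H3.3 mRNA and 5.66% in the library labelled H3.2 mRNA, so a 0 at the level of Smad7 was frequent there. Smad6, the other inhibitory SMAD, was listed at 0 in 4 libraries and stood at 1.63 FPKM in the library labelled H3.2 mRNA.

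Smad4, the partner shared by the BMP and the activin and TGF-beta branches, was the most abundant SMAD among the 10 genes. It stood at 61.2 FPKM in the knockdown, 243 FPKM in the library labelled H3.3 mRNA and 141 FPKM in the library labelled H3.2 mRNA, against 150 FPKM with luciferase and 180 FPKM untreated. The knockdown was the lowest library, 2.45-fold below luciferase and 2.95-fold below untreated, short of 4-fold, while the controls were 1.20-fold apart. Relative to the knockdown Smad4 was 3.96-fold higher in the library labelled H3.3 mRNA (1.97) and 2.30-fold higher in the library labelled H3.2 mRNA. The first of these differences passed 4-fold after rescaling to a common sum (2.16) or by upper quartile (2.15).

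The receptor-regulated SMADs of the BMP branch were low throughout. Smad5 stood at 7.44, 10.3 and 7.64 FPKM in the knockdown, H3.3 mRNA and H3.2 mRNA libraries, against 13.3 FPKM with luciferase and 4.63 FPKM untreated. All 3 lay between the controls, and its whole range was 2.88-fold, the narrowest among the genes above 0 in every library. Smad1 was listed at 0 in the library labelled H3.3 mRNA and with luciferase, and stood at 2.43 FPKM in the knockdown, 7.36 FPKM in the library labelled H3.2 mRNA and 2.60 FPKM untreated. Smad9, the other BMP-branch SMAD, was at 3.49 FPKM or less in each library. Smad2 and Smad3, which serve the activin and TGF-beta branch, summed to 217, 146 and 149 FPKM in the knockdown-derived libraries, against 150.5 FPKM with luciferase and 105 FPKM untreated. That was 9.94 to 22.0 times the sum of Smad1 and Smad5 over the 5 libraries.

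Bmpr1a, a type I receptor for BMPs, differed between the controls more than between the knockdown and luciferase. It stood at 72.0 FPKM in the knockdown, 53.9 FPKM in the library labelled H3.3 mRNA and 98.1 FPKM in the library labelled H3.2 mRNA, against 69.2 FPKM with luciferase and 11.2 FPKM untreated. The untreated library was the single low one. The knockdown was 6.43-fold above it (2.58) and 1.04-fold above luciferase, and luciferase was 6.18-fold above untreated (2.53). The cumulus and granulosa markers had their highest sum, nearly all of it Tnfaip6, in the untreated library, where Id2 and Bmpr1a were lowest. Of the 12 markers 2 were above 0 there, against 4 in the library labelled H3.2 mRNA. The part of such cells in the Id2 and Bmpr1a values was not tested.

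Against both controls, 2 of the 9 genes past the filter were lower in the knockdown, Id3 and Smad7, and none was higher. The background was 6.35% of genes lower and 4.98% higher. Against the untreated library alone Id3 and Smad7 were lower (background 15.6%) and Bmpr1a was higher (16.8%). Against luciferase alone the same 2 genes were lower (18.9%) and none was higher (9.74%). The luciferase library exceeded the untreated one for Id2 and Bmpr1a (23.5%), with none lower (13.4%). With the length trend removed the split was 1 higher (Id2) and 2 lower (Smad1 and Smad7), and with quantile normalization it was 2 higher and 2 lower. The 9 genes had a median difference of -0.07 against untreated, where the median over all genes was 0, and of -1.16 against luciferase, where it was -0.12. Between the controls their median was 1.05, against 0.02 for all genes, so the controls lay nearly as far apart over these genes as the knockdown and luciferase. Both knockdown comparisons share the knockdown library.

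**Figure D3:**
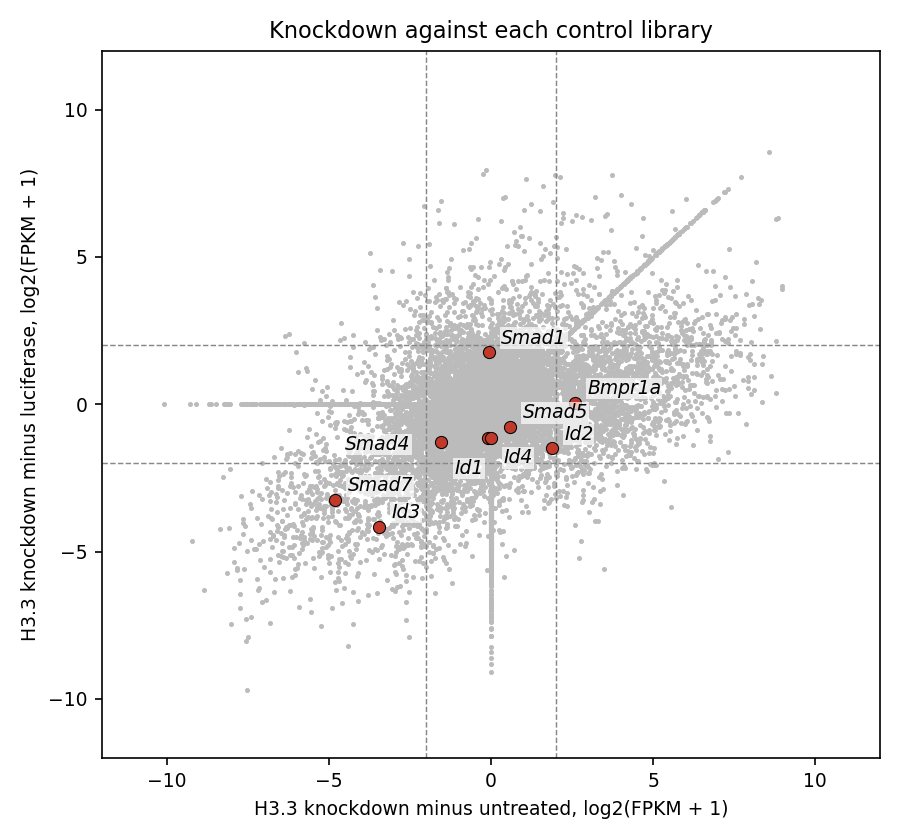
Difference of the knockdown from the untreated library (horizontal) and from the luciferase library (vertical) in log2(FPKM + 1), for 13144 genes in grey and the 9 genes past the filter in red; dashed lines mark 4-fold. Id3 (-3.46, -4.15) and Smad7 (-4.82, -3.24) lie past 4-fold on both axes, and Bmpr1a lies past it on the horizontal axis only.

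Relative to the knockdown, Smad7 was called higher in the library labelled H3.3 mRNA (background 16.4%) and no gene lower (10.1%). In the library labelled H3.2 mRNA, Smad7 and Id4 were higher (19.5%) and Id1 lower (9.11%). Id4 was above 0 elsewhere only with luciferase, at 1.23 FPKM. It therefore passed the filter through the same value that was called higher, and its call is not independent of the filter. The Id1 call was lost with a common sum, with the length trend removed and with a pseudocount of 10. In the knockdown 835 genes were called lower against both controls, and of these 68.5% lay closer to the control mean than to the knockdown in the library labelled H3.3 mRNA, and 69.2% in the library labelled H3.2 mRNA. Smad7 was on the control side in both, and Id3 on the knockdown side in both. Genes picked for a low knockdown value tend to lie higher in any other library, and the share that would do so was not estimated.

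When the 3 knockdown-derived libraries were set beside the 2 controls, Id1 and Id3 lay below both controls in all 3, as did 8.83% of genes, and none of the 9 lay above in all 3, as did 7.14%. With 4-fold required of each of the 3 libraries, a rule added after the values were seen, Id3 alone remained on the lower side, where 0.73% of genes did, and none on the higher side, where 0.647% did. The Id3 call under this rule was lost when the libraries were rescaled to a common sum, by upper quartile or by quantiles, or when the length trend was removed, since the library labelled H3.3 mRNA then stood 1.60 to 1.87 below untreated. In these 4 settings the direction was the same, and the knockdown itself stayed past 4-fold from both controls.

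Other genes of the pathway were taken from lists by role. All 98 had a row in the files and 63 passed the filter, and in the knockdown 7 of these (11.1%) were lower and 3 (4.76%) higher than both controls. Over all genes these shares were 6.35% and 4.98%, so the share called higher was near the background. Of the 3 called higher, Figla was above 0 only in the knockdown. It therefore passed the filter through the same value that was called higher, and its call is not independent of the filter. None of the 7 stayed lower by 4-fold with a pseudocount of 10. The calls below, by role, are read against the same shares. By order alone, 7 of the 63 genes (11.1%) had all 3 knockdown-derived libraries above both controls, and 7 (11.1%) had them below. Over all genes 7.14% lay above and 8.83% below in this way. The median of the 63 was -0.80 against untreated and -0.88 against luciferase, where all genes had 0 and -0.12. These genes are long, with a median transcript of 4061 bases against 3184 over all genes, and after the trend in length was taken out the medians were -0.64 and -0.43. The luciferase library was also below the untreated one for this list, with a median of -0.51, or -0.99 without the length trend, which was larger in size than both knockdown medians treated in that way.

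Among 18 ligands 10 passed the filter, and Bmp8a and Bmp8b were lower in the knockdown. Bmp8b was listed at 0 in the knockdown and in the library labelled H3.2 mRNA and at 4.44 FPKM in the library labelled H3.3 mRNA, against 22.7 FPKM with luciferase and 113 FPKM untreated. Bmp8a was listed at 0 in all 3, against 3.83 FPKM with luciferase and 21.3 FPKM untreated. These are close paralogs, so reads may be divided between them with error. Bmp2, Bmp4 and Bmp7 were listed at 0 in every library. Bmp6 stood at 16.6 FPKM in the knockdown, 90.8 FPKM in the library labelled H3.3 mRNA and 40.6 FPKM in the library labelled H3.2 mRNA, against 9.87 FPKM with luciferase and 6.86 FPKM untreated, so that all 3 lay above both controls. It was the 1 ligand in that order, and 3 had the opposite order, Bmp8a, Bmp8b and Gdf5. Gdf5 stood at 25.0, 38.4 and 11.9 FPKM in the knockdown-derived libraries, against 56.4 FPKM with luciferase and 168 FPKM untreated. The oocyte ligand gene Gdf9 stood at 550, 330 and 177 FPKM in the knockdown-derived libraries, against 81.3 FPKM with luciferase and 1332 FPKM untreated.

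Among receptors and co-receptors, 7 of 10 passed the filter, with Acvr2b lower and Rgmb higher in the knockdown. Acvr2b, a type II receptor, was listed at 0 in the knockdown and stood at 49.6 FPKM in the library labelled H3.3 mRNA and 48.9 FPKM in the library labelled H3.2 mRNA, against 27.5 FPKM with luciferase and 69.6 FPKM untreated. Rgmb, a BMP co-receptor, stood at 11.8, 4.14 and 14.1 FPKM in the knockdown-derived libraries, against 1.21 FPKM with luciferase and a listed 0 untreated. Bmpr2, the type II receptor for BMPs, stood at 10.3 FPKM in the knockdown, 53.0 FPKM in the library labelled H3.3 mRNA and 69.3 FPKM in the library labelled H3.2 mRNA, against 19.8 FPKM with luciferase and 9.13 FPKM untreated. The mRNA libraries were above both controls for Bmpr2 and between them for Acvr2b.

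All 25 intracellular regulators passed the filter, and Smurf1 and Usp9x were lower in the knockdown. Smurf1, a ubiquitin ligase that targets SMAD1 and SMAD5, stood at 1.74 FPKM in the knockdown, 41.0 FPKM in the library labelled H3.3 mRNA and 45.3 FPKM in the library labelled H3.2 mRNA, against 20.6 FPKM with luciferase and 56.6 FPKM untreated. Usp9x, which removes ubiquitin from SMAD4, stood at 6.69, 49.8 and 91.9 FPKM in these 3 libraries, against 50.5 FPKM with luciferase and 59.6 FPKM untreated. Like Smad7, both genes were low in the knockdown alone. The other 23 regulators did not pass 4-fold against both controls.

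Of 18 extracellular antagonists and modulators 10 passed the filter. Dand5, a secreted antagonist, was higher in the knockdown at 110 FPKM, with 11.2 FPKM in the library labelled H3.3 mRNA, a listed 0 in the library labelled H3.2 mRNA, a listed 0 with luciferase and 4.59 FPKM untreated. Bmp1, a protease that frees BMPs by cutting chordin, was listed at 0 in the knockdown and in the library labelled H3.2 mRNA and stood at 49.7 FPKM in the library labelled H3.3 mRNA, against 8.40 FPKM with luciferase and 83.7 FPKM untreated. The gene of the antagonist noggin, Nog, was listed at 0 in every library.

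Among 11 other targets only 3 passed the filter, and Hes1, a bHLH repressor better known as a Notch target, was lower in the knockdown. It was listed at 0 there and stood at 9.18 FPKM in the library labelled H3.3 mRNA and 11.9 FPKM in the library labelled H3.2 mRNA, against 34.5 FPKM with luciferase and 29.4 FPKM untreated, so that all 3 lay below both controls. Of 13 partners of Id proteins 5 passed, and Figla, an oocyte bHLH factor, was above 0 only in the knockdown, at 27.8 FPKM. Hand1, a bHLH factor of trophoblast, stood at 522, 152 and 560 FPKM in the knockdown-derived libraries, against 1591 FPKM with luciferase and 770 FPKM untreated.

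**Figure D4:**
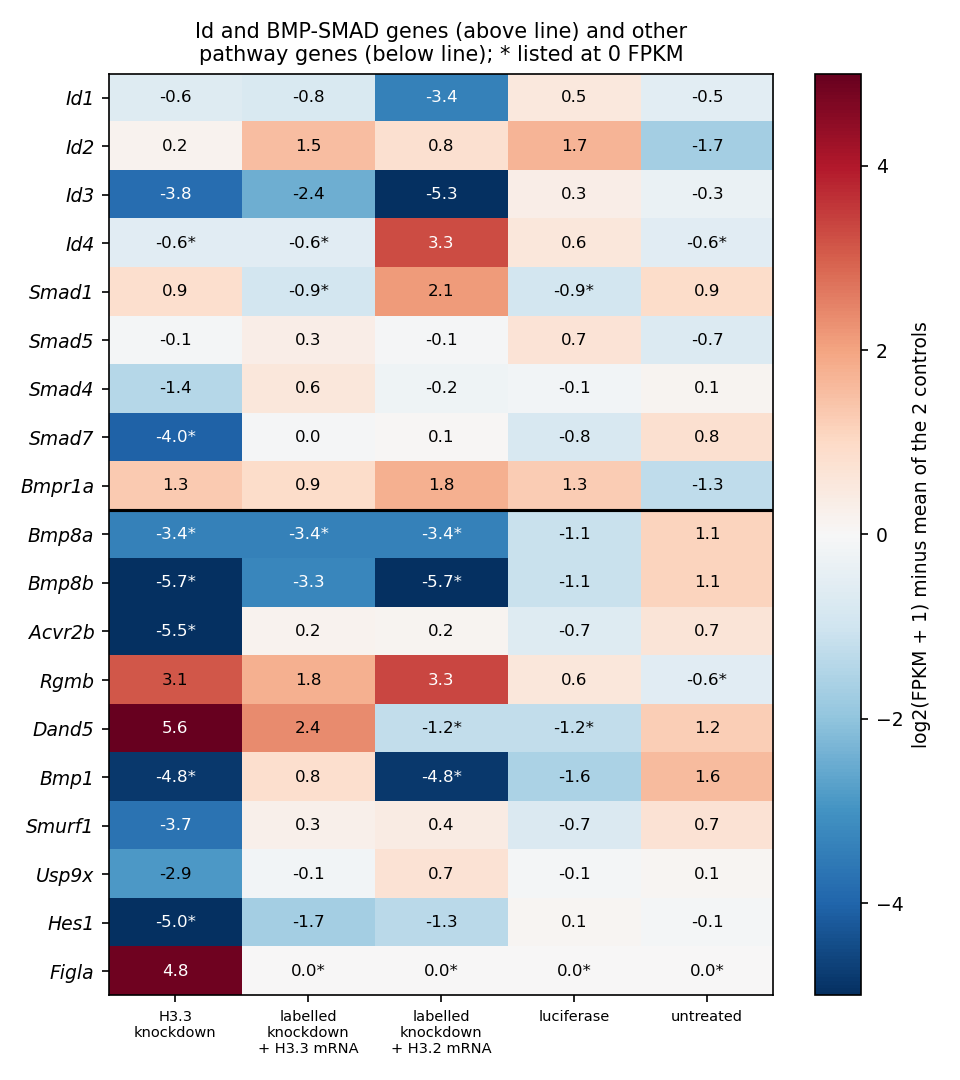
Each cell gives log2(FPKM + 1) minus the mean of the 2 controls, for the 9 genes past the filter (above the line) and the 10 pathway genes at least 4-fold from both controls in the knockdown (below it); an asterisk marks a gene listed at 0, and colours saturate at 5. Id3 is low in all 3 knockdown-derived columns (-3.81, -2.44 and -5.34), whereas Smad7, Acvr2b, Smurf1 and Usp9x are low in the knockdown column alone.

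The genes whose profile over the 5 libraries lay nearest to each of 4 members were found by the root-mean-square distance of log2(FPKM + 1), each gene centred on its own mean. For Id3, among 7513 genes that averaged 10 FPKM or more and had no value at 0, the nearest were Rnd1 (distance 0.59), Pbld2 (0.66) and Smpdl3a (0.67). Rnd1 stood at 25.4, 22.4 and 4.35 FPKM in the knockdown, H3.3 mRNA and H3.2 mRNA libraries, against 156 FPKM with luciferase and 120.2 FPKM untreated. The knockdown targets H3f3b and H3f3a, looked up after the values were seen, ranked 22 and 31 in distance from Id3, at 1.08 and 1.15. For Id1 the nearest were Btg1 (0.27), Txndc11 (0.35) and Timm8a2 (0.39). For Id2 they were Zfp692 (0.15), Taf2 (0.18) and Map4k5 (0.22). For Smad7, among 279 genes that shared its single 0, they were Habp4 (0.16), Angel1 (0.17) and Itga5 (0.21). Likeness over 5 libraries is a description and says nothing on function.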

How the data were processed

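TopHat, Cufflinks and mm9 are named, with no version or role, in the submitters' processing notes as what the authors used to make the FPKM values; single reads of 51 bases came from TruSeq libraries of total RNA, per the labels' protocols. Each of the 5 deposited FPKM files lists 22026 symbols. FPKM is relative to the library total, so abundant transcripts shift all others. Depth is unknown: below 20 FPKM a step of 1 read could not be seen, as the fullest 0.1-wide log2 bin held at most 3.92% of genes for any pair of libraries, so no interval is given.

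Values were compared as log2(FPKM + 1) over 13144 genes averaging 1 FPKM or more, and called past 4-fold, in Python 3.11.15 with pandas 2.3.3. The calling was tested on simulated data, which does not measure the error of a call from 1 library per group. All 10 genes are named, with the pathway genes past 4-fold from both controls (up to 5 per role) and the 3 most similar genes for Id1, Id2, Id3 and Smad7; other genes named were chosen after their values were seen. The genes and lists were chosen with earlier results of these data known. Transcript lengths (longest per symbol, GENCODE M21, GRCm38) covered 98.9% of genes, and the length trend is a running median over 501 genes. Alternatives were 2 other pseudocounts, 2 filters, 3 rescalings, the length trend and 2 other folds.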

Additional observations from a re-analysis of the deposited data

How the results depend on the processing

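No paired analysis was possible because each group has 1 library. Of 690 differences of single genes under 8 alternatives, 637 kept their side of 4-fold, 31 fell short of it, 22 newly passed it, and no difference past 4-fold changed sign. A filter cannot move the difference of a single gene, and the 2 filters account for 90 and 60 of those that kept their side. Against both controls 2 genes were lower in the knockdown (Id3, Smad7). Only Id3 stayed, a count of 1, with a pseudocount of 10 or after rescaling to a common sum. At 2-fold the count was 3, with Smad4. Against untreated the count of 3 became 1 with a pseudocount of 10 and 5 at 2-fold. Against luciferase the count of 2 became 4 with a pseudocount of 0.1, 1 with a pseudocount of 10 or a common sum, and 7 at 2-fold. For H3.3 mRNA against the knockdown the count of 1 became 2 with a pseudocount of 0.1 and under all 3 rescalings, 3 with the length trend removed, 5 at 2-fold and 0 with a pseudocount of 10. For the library labelled H3.2 mRNA the count of 3 became 0 with a pseudocount of 10 and 6 at 2-fold, and Id1 was lost with a common sum or without the length trend. Between the controls the count of 2 became 4 with a pseudocount of 0.1 or quantile normalization, 1 with a pseudocount of 10 or at 8-fold, and 7 at 2-fold. Upper-quartile scaling left 1 gene, Id3, with all 3 knockdown-derived libraries below the controls. With quantile normalization the count stayed at 2, but Id1 was lost and Smad5 entered. The knockdown then stood 0.02 above untreated for Id1. Id3 was no longer 4-fold lower in all 3, a count of 0, under the 3 rescalings, without the length trend and at 8-fold. The 10 pathway genes became 1 with a pseudocount of 10, 23 at 2-fold and 6 at 8-fold.

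Id3 in the knockdown ranged over these alternatives from -3.85 to -3.10 against untreated and from -4.66 to -3.96 against luciferase. Smad7 ranged from -8.09 to -1.89 and from -6.42 to -0.88, since a listed 0 depends on the pseudocount. The H3.2 mRNA library shifts with scaling: its median over all genes against the knockdown was 0.15 as deposited, 0.60 with a common sum and 0.47 with upper quartiles. Without a depth, a listed 0 has no detection limit, which touches Id4, Smad1, Smad6 and Smad7.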
